A study of Bos taurus with 24 samples.

Results

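The keratins described here are KRT8, KRT18, KRT19 and KRT7, the 4 epithelial keratins of the early blastocyst, taken by symbol from a table of exon counts of 24621 genes in 24 single bovine embryos. All 4 were found in the table, and all 4 had enough counts to be tested in every comparison. Keratins are the intermediate filament proteins of epithelial cells. A filament is built from pairs of a type II keratin, here KRT8 or KRT7, with a type I keratin, here KRT18 or KRT19. The trophectoderm, the outer epithelium of the blastocyst that later forms the placenta, is the first cell layer of the embryo known for a dense network of these filaments, whereas the inner cell mass is not. The filaments are tied to desmosomes, the junctions that hold neighbouring epithelial cells together.

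Each of the 24 embryos was a Holstein early blastocyst of the best morphological quality grade and was sequenced on its own, after its sex had been determined by RT-PCR. The 8 embryos derived in vivo (5 male, 3 female) were flushed from the uterus of superovulated cows after artificial insemination. The 8 serum embryos (3 male, 5 female) came from slaughterhouse oocytes matured and cultured with fetal bovine serum, in synthetic oviduct fluid (SOF) as the culture medium. The 8 serum-free embryos (5 male, 3 female) were matured with epidermal growth factor and cultured in the same medium with bovine serum albumin, insulin, transferrin and selenium instead of serum. Semen of the same bull was used for all 3 conditions. Embryos derived in vivo were collected a week after insemination, and cultured ones a week after it or the day before. The labels do not give the day for each embryo. The embryos derived in vivo came from 3 cows and the cultured ones from 3 in vitro experiments, so embryos of 1 condition shared mothers or experiments, and p-values over 8 and 8 embryos treat them as independent. The labels do not say which cow, experiment or sequencing lane an embryo belonged to, so these cannot be told apart from the culture condition.

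Levels are given as CPM, the counts of a gene scaled to the total of its library, after TMM normalization over all 24 embryos. CPM is not corrected for the length of a gene, so the levels of 1 keratin were compared between embryos and not with those of another keratin. Fold changes are log2 values ± SE from edgeR's quasi-likelihood test, with the first named group over the second, and adjusted p-values are Benjamini-Hochberg values over all genes tested. A gene is said to have been called when its adjusted p-value was below 0.05 and its change was at least 2-fold. A whole embryo was sequenced each time, so fewer cells of a type and less RNA per cell cannot be told apart.

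Each embryo had 3253051 to 9000447 exon counts, and between 11735 and 14732 genes had a count. The serum embryo B2 stood apart from its own condition: its median correlation with the other serum embryos was 0.739, against 0.833 to 0.882 for the remaining serum embryos. The serum-free embryo C7 had the lowest such value of its condition, 0.870. Of 8 listed trophectoderm markers 6 were in the table, and they had a summed level of 633 to 865 CPM in vivo, 750 to 1327 CPM in serum-free medium and 51.2 to 737 CPM in serum-containing medium. DAB2 was the largest part of this sum, with mean levels of 604, 772 and 281 CPM in vivo, in serum-free and in serum-containing medium. TEAD4, another of the 6, went the other way in serum, with means of 32.8, 43.4 and 54.2 CPM. B2 was the lowest of all embryos for the sum. The gene CDX2, a defining factor of this layer, was near 0 in all conditions, with mean levels of 1.25, 0.75 and 0.52 CPM in vivo, in serum-free and in serum-containing medium.

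KRT8, the main type II keratin of simple epithelia, was among the genes with the highest raw counts in embryos derived in vivo. Its level in vivo was 5875 CPM in the lowest embryo, 8646 CPM at the median and 11605 CPM in the highest. In the serum-free embryos the lowest, median and highest levels were 3810, 6856 and 22758 CPM, the highest being C7 and the next C8 with 11391 CPM. In the serum embryos they were 38.1, 739 and 4010 CPM. Every serum embryo was below every embryo derived in vivo, and B8 alone among them exceeded the lowest serum-free embryo. The serum embryos spread over a 105-fold range, against 1.98-fold in vivo and 5.97-fold in serum-free medium. By embryo, the serum levels were 4010 CPM in B8, 2072 in B6, 869 in B1, 756 in B3, 721 in B4, 213 in B5, 70.1 in B7 and 38.1 in B2. The rank of KRT8 by raw count ran from 3 to 10 among the genes of the embryos derived in vivo and from 2 to 15 in serum-free embryos. In serum embryos it ran from 11 to 3775.

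KRT18, the type I partner of KRT8, followed the same order of conditions. The lowest, median and highest levels were 1018, 1792 and 2809 CPM in vivo. In serum-free embryos they were 866, 993 and 4838 CPM, again with C7 highest. Serum embryos had 44.9, 180 and 871 CPM. No serum embryo reached the lowest embryo derived in vivo, and the serum embryo B8 overlapped the lowest serum-free embryo by a small margin. B2 was the lowest serum embryo for KRT18 too, and B8 the highest.

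KRT19, a small type I keratin without a tail domain that also pairs with KRT8 and KRT7, separated the serum embryos from all others. Its lowest, median and highest levels were 14.7, 40.8 and 69.4 CPM in vivo. In serum-free embryos they were 12.5, 28.1 and 526 CPM, where C7 stood at 526 and the next embryo, C4, at 61.2 CPM. In serum embryos they were 1.99, 2.99 and 6.60 CPM, which rest on 11 to 33 counts per embryo. The serum embryos lay below all embryos of both other conditions, within a narrow range. Their order differed from that of KRT8, since B8 was highest for KRT8 and lowest for KRT19.

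KRT7, another type II keratin of simple epithelia, was the only one of the 4 whose serum embryos reached the embryos derived in vivo. Its lowest, median and highest levels were 33.4, 85.9 and 111 CPM in vivo. They were 14.5, 55.2 and 86.5 CPM in serum-free embryos and 0.233, 12.8 and 39.6 CPM in serum embryos. The serum embryo B2 had a single KRT7 count, and B1 and B4, with 39.6 and 35.2 CPM, were within the range of the embryos derived in vivo. C7, the serum-free embryo with the highest KRT8, KRT18 and KRT19, had 57.1 CPM of KRT7, close to the median.

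**Figure D1:**
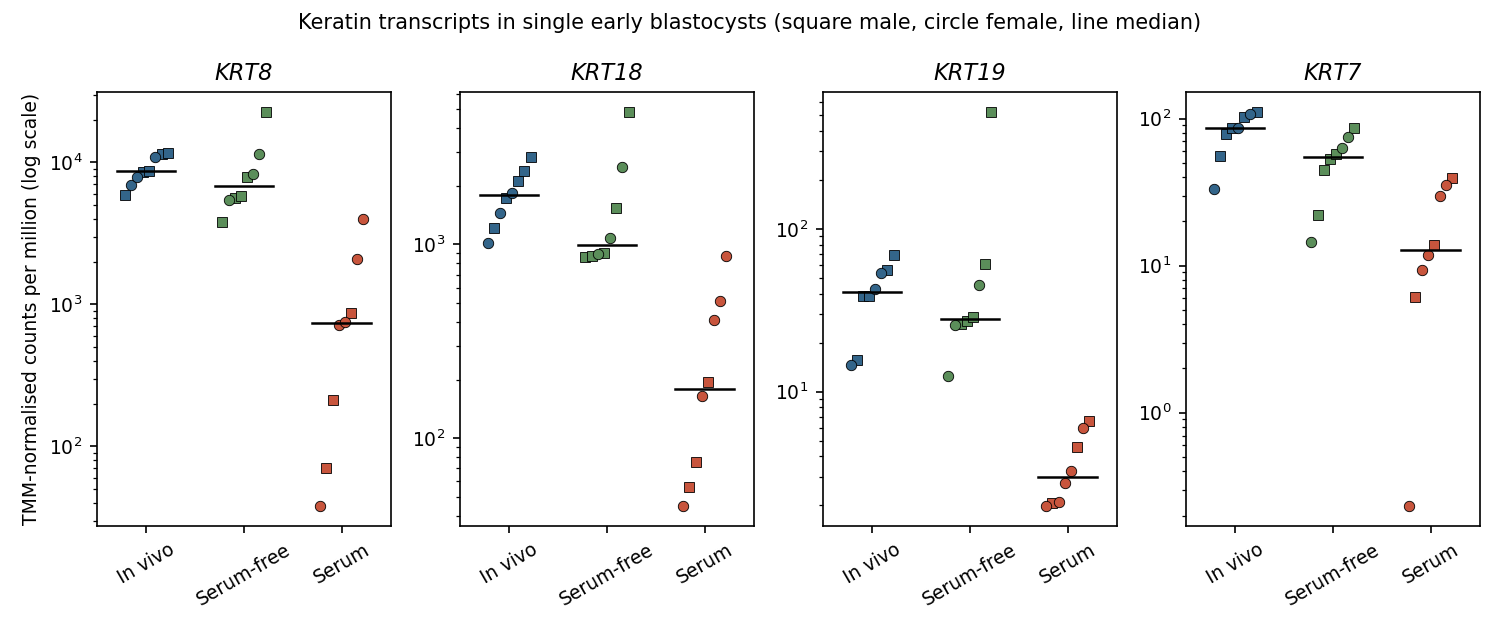
TMM-normalized CPM (log axis) of KRT8, KRT18, KRT19 and KRT7 in each embryo, by culture condition (squares male, circles female, line the median). Serum embryos lie below all embryos derived in vivo for KRT8, KRT18 and KRT19, and the serum-free embryo C7 is the highest point for these 3 genes, at 22758, 4838 and 526 CPM.

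The 4 keratins together took 0.695% to 1.44% of all exon counts in embryos derived in vivo, with a median of 1.06%. In serum-free embryos the share was 0.488% to 2.43%, with a median of 0.817%. In serum embryos it was 0.00816% to 0.53%, with a median of 0.105%. The ranges in vivo and in serum did not overlap, and the serum-free range overlapped both.

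Embryos derived in vivo were compared with serum embryos, and all 4 keratins were called higher in vivo. The groups differed in the source of the oocytes, maturation, fertilization and culture, and may have differed in age by a day. Serum can therefore not be told apart from the rest of in vitro production here. In that comparison 13.8% of the 7339 genes tested were called, and 7.34% were called higher in vivo. KRT8 was 8.29-fold higher in vivo (log2 fold change 3.05 ± 0.67, adjusted p = 0.00289, n = 8 and 8). KRT18 was 6.32-fold higher (2.66 ± 0.51, adjusted p = 0.00124). KRT19 had the largest change of the 4, 11.4-fold (3.52 ± 0.39, adjusted p = 1.35e-05), and KRT7 the smallest, 4.58-fold (2.20 ± 0.51, adjusted p = 0.00428). KRT8, KRT18 and KRT19 did not overlap between the groups, a separation in favour of in vivo that 3.9% of all genes tested had, whereas KRT7 overlapped. Without B2 the log2 fold changes were 2.83, 2.46, 3.48 and 1.98 for KRT8, KRT18, KRT19 and KRT7, and all 4 were called. All 4 calls also held when each of the other embryos was left out in turn, and KRT8 moved furthest, to 3.75 without the serum embryo B8.

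Serum-free embryos, set against serum embryos, asked about the 2 culture systems directly, and 3 of the 4 keratins were called higher in serum-free medium. Of the 7181 genes tested 8.91% were called, and 5.36% were called higher in serum-free medium. This comparison shares its serum embryos with the previous one. KRT19 was 26.4-fold higher (log2 fold change 4.72 ± 0.76, adjusted p = 0.00236), KRT8 8.24-fold (3.04 ± 0.71, adjusted p = 0.0111) and KRT18 5.88-fold (2.56 ± 0.58, adjusted p = 0.00982). KRT7 was not called at 1.54 ± 0.55, with an adjusted p of 0.0604. Without C7 the 4 values were 2.65 for KRT8, 2.08 for KRT18, 3.14 for KRT19 and 1.49 for KRT7, with the same 3 calls. Without B2 they were 2.83, 2.37, 4.70 and 1.33, and without B8 KRT8 was 3.74. KRT19 was the only one without overlap between the groups, as were 1.59% of all genes tested in the direction of serum-free medium. KRT7 passed in edgeR's exact test (adjusted p = 0.0322), in DESeq2 (adjusted p = 0.0206) and without B1 (0.0395), B2 (0.0406) or B4 (0.0442), so its call depended on the test and on single embryos.

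No keratin differed enough between embryos derived in vivo and serum-free embryos to be called, where 2.2% of the 7314 genes tested were called. The log2 fold changes, in vivo over serum-free, were 0.02 ± 0.27 for KRT8 (adjusted p = 0.979) and 0.11 ± 0.33 for KRT18 (0.887). KRT7 stood at 0.66 ± 0.30 (0.196) and KRT19 at -1.18 ± 0.62 (0.278). At an unadjusted p below 0.05 there was 1 keratin in the quasi-likelihood test, 2 in the exact test and 1 in DESeq2, which called none either. Of all 7314 genes tested, 1571 were below 0.05 in the quasi-likelihood test. The negative value of KRT19 rested on C7, without which it was 0.34, and those of KRT8, KRT18 and KRT7 were then 0.37, 0.55 and 0.68, again with no call.

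**Figure D2:**
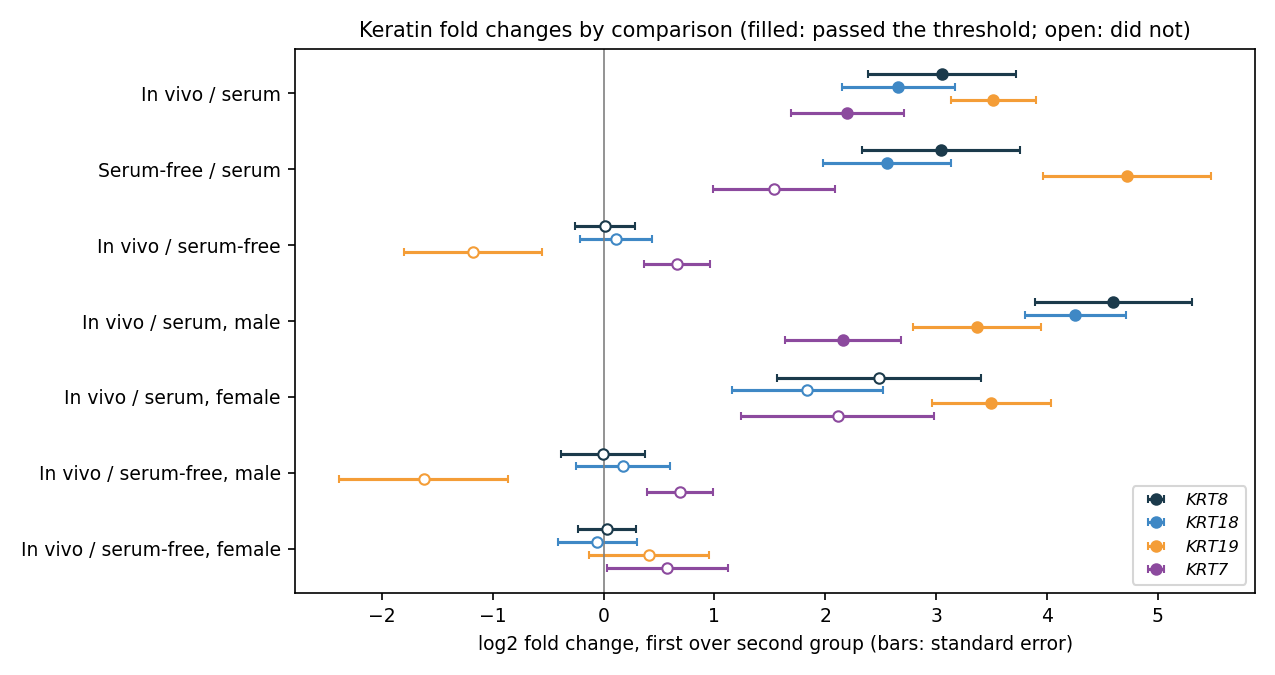
Log2 fold changes ± SE of the 4 keratins in the comparisons of culture conditions, for all embryos and for each sex (filled points called, open points not called). With all embryos, the values of in vivo over serum lie between 2.20 and 3.52 and those of serum-free over serum between 1.54 and 4.72, and those of in vivo over serum-free include 0.02 for KRT8 and -1.18 for KRT19.

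Male and female embryos were then compared separately, and the keratin levels of serum embryos were the lower ones in both sexes, with fewer calls in females. In males KRT8 was 5875 to 11605 CPM in vivo and 70.1 to 869 CPM in serum, and KRT18 was 1215 to 2809 and 56.4 to 195 CPM. All 4 keratins were called higher in male embryos derived in vivo than in male serum embryos, in a comparison with 13.3% of 7762 genes called and 8.03% called higher in vivo. The log2 fold changes in males were 4.60 ± 0.71 for KRT8 (adjusted p = 0.00215), 4.26 ± 0.46 for KRT18 (0.000451), 3.37 ± 0.58 for KRT19 (0.00322) and 2.16 ± 0.52 for KRT7 (0.0152). None of the 4 overlapped between the male groups of 5 and 3, a separation that 13.4% of genes tested had in that direction. The KRT7 call was lost without the serum embryo B7 (adjusted p = 0.0653), and without B1 the values rose to 6.07 for KRT8, 5.01 for KRT18 and 3.23 for KRT7.

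In females KRT8 was 6941 to 10880 CPM in vivo and 38.1 to 4010 CPM in serum, and KRT18 was 1018 to 1847 and 44.9 to 871 CPM. Of the 4 keratins only KRT19 was called, at 3.50 ± 0.54 (adjusted p = 0.0415), where 0.418% of 8138 genes were called and 0.233% were called higher in vivo. The log2 fold changes of KRT8, KRT18 and KRT7 were 2.49 ± 0.92 (adjusted p = 0.18), 1.84 ± 0.68 (0.18) and 2.11 ± 0.88 (0.213), each with an unadjusted p below 0.05. So had 1719 of the 8138 genes tested in that comparison. KRT8, KRT18 and KRT19 did not overlap between the 3 and 5 female embryos, as 12.7% of genes tested did not, and KRT7 overlapped. Leaving out B2 raised the number of keratins called to 2, with KRT8 at 2.19 (adjusted p = 0.0346), in a setting where 5.34% of 8357 genes were called in place of 0.418%. The KRT19 call was kept only without A9 or B2 among the 8 embryos left out in turn.

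The difference between the sexes was itself tested as an interaction of sex and culture, and no keratin passed. For in vivo against serum no gene of 8446 was called (0%) by edgeR, 436 had an unadjusted p below 0.05, and DESeq2 called 14. The male change of KRT8 exceeded the female change by 2.09 ± 1.25 on the log2 scale (edgeR quasi-likelihood, adjusted p = 0.996) and that of KRT18 by 2.39 ± 0.90 (adjusted p = 0.830). The interaction was -0.19 for KRT19 and 0.01 for KRT7. Without B2, a choice made after the data had been seen, it was 2.40 for KRT8 (edgeR quasi-likelihood, adjusted p = 0.415) and 2.67 for KRT18 (adjusted p = 0.283). With all embryos in the fit, KRT18 was the single keratin with an unadjusted p below 0.05, in edgeR as in DESeq2, where none was called either. Without B2, KRT8 was below 0.05 as well (edgeR quasi-likelihood, unadjusted p = 0.0162). Among the serum embryos themselves, males had lower values than females for KRT8 (-2.00 ± 1.16) and KRT18 (-1.89 ± 0.80, edgeR quasi-likelihood adjusted p = 0.757), which were not called in a comparison with 0.173% of genes called.

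The remaining comparisons by sex gave no keratin call. They were male and female embryos derived in vivo against serum-free embryos of the same sex, with 0.966% and 0.304% of genes called, and males against females in vivo and in serum-free medium, with 0.653% and 0.139% called. In quasi-likelihood, exact and DESeq2 tests, the keratins with an unadjusted p below 0.05 numbered 1, 2 and 1 for male in vivo against serum-free, 0, 0 and 0 for the female comparison, 0, 0 and 1 for sex in vivo, and 1, 1 and 0 for sex in serum-free medium. In the same order, the quasi-likelihood test had 1377 of 7662, 1153 of 8211, 1077 of 7963 and 634 of 7918 genes below 0.05. The keratin below 0.05 for sex in serum-free medium was KRT19, which was higher in males by 2.25 ± 1.02 (edgeR quasi-likelihood, adjusted p = 0.621). C7 is a male embryo, and without it the value was 0.36 ± 0.46 (adjusted p = 0.861), while KRT8 and KRT18 were then lower in males, at -0.53 and -0.52, and not called. For in vivo against serum-free the interaction of sex and culture of KRT19 was -2.04 ± 1.19 (adjusted p = 0.828) and -0.12 ± 0.70 without C7 (edgeR quasi-likelihood, adjusted p = 0.978). Again no gene of 8425 was called (0%) by edgeR, with 555 at an unadjusted p below 0.05 and 5 called by DESeq2. None of the 4 keratins had an unadjusted p below 0.05 there in either tool, with all embryos in the fit. Without C7, a choice made after the data had been seen, KRT18 was at 1.03 ± 0.45 (edgeR quasi-likelihood, unadjusted p = 0.0349, adjusted p = 0.628). KRT8 was then at 0.64 ± 0.36 (edgeR quasi-likelihood, unadjusted p = 0.0956).

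KRT8 and KRT18 moved together from embryo to embryo within every condition. Their correlation on log2(CPM + 1) was r = 0.88 in vivo (exact permutation p = 0.00518, adjusted p = 0.031, n = 8, 2-sided, over 18 pairs and conditions computed), with Spearman's rho of 0.95 (p = 0.00114, adjusted p = 0.0103). In serum-free embryos it was r = 0.95 (exact permutation p = 0.000645, adjusted p = 0.00759) with rho = 0.95 (p = 0.00114, adjusted p = 0.0103). In serum embryos it was r = 0.94 (exact permutation p = 0.000843, adjusted p = 0.00759) with rho = 0.93 (p = 0.00223, adjusted p = 0.0134). Without the 2 embryos farthest from the median in KRT8, r was 0.84, 0.92 and 0.88 in the 3 conditions.

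Pairs with KRT19 held in some conditions and not in others. KRT18 and KRT19 had r = 0.83 in vivo and 0.88 in serum-free medium (exact permutation, adjusted p = 0.0437 in both), but the rho values of 0.76 and 0.67 had adjusted p-values of 0.165 and 0.249 by the same exact test. Without the 2 farthest embryos these r values were 0.71 and 0.53, so the serum-free relation rested in part on C8 and C7. In serum embryos KRT19 had r = -0.34 with KRT18 (exact permutation, adjusted p = 0.501) and -0.23 with KRT8 (0.598). No pair with KRT7 passed in any condition.

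The ratio of KRT8 counts to KRT18 counts, which needs no normalization, described the same pair in another way. It lay between 4.08 and 6.82 in vivo and between 4.40 and 7.69 in serum-free embryos. In serum embryos it ran from 0.850 in B2 to 5.06 in B6. The serum embryos B7, B3 and B5 were at 1.24, 1.48 and 2.82, below every embryo of the other conditions, whereas B4, B1 and B8, at 4.36, 4.45 and 4.60, lay inside the range in vivo. On the log2 scale the mean ratio was 2.33 ± 0.25 in vivo, 2.48 ± 0.29 in serum-free medium and 1.37 ± 1.01 in serum (SD, n = 8), and no test was made on it. The spread of the KRT8 to KRT19 ratio in log2 units was 0.61 in vivo, 1.10 in serum-free medium and 2.59 in serum.

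**Figure D3:**
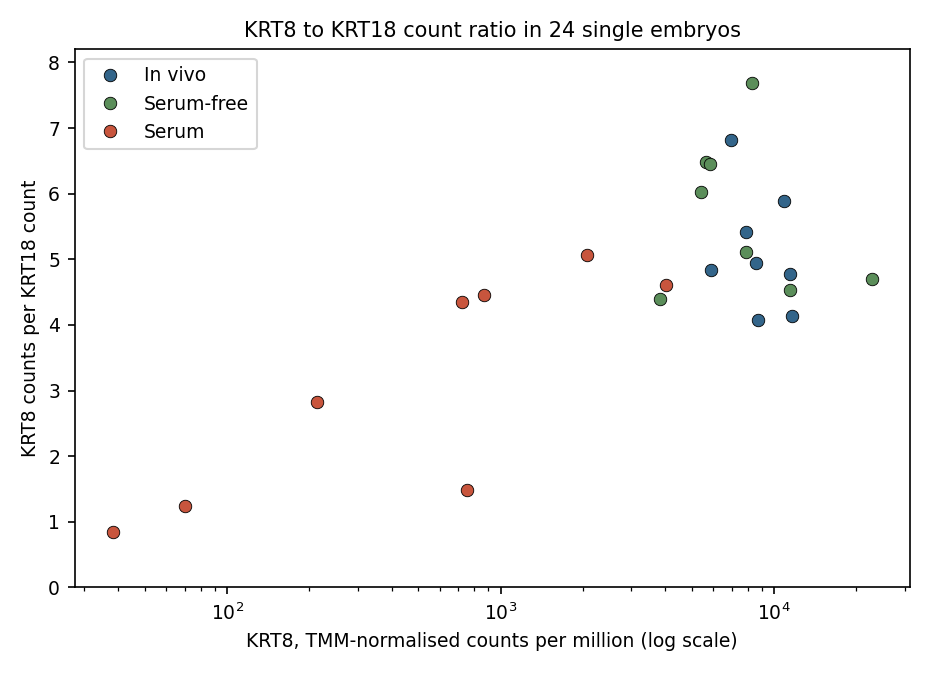
KRT8 counts per KRT18 count against the KRT8 level (CPM, log axis) in each of the 24 embryos, coloured by culture condition. The embryos derived in vivo and in serum-free medium lie between 4.08 and 7.69, and 4 of the 8 serum embryos lie below 4.08, down to 0.850.

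In the RefSeq annotation of the assembly ARS-UCD2.0, KRT8 and KRT18 are immediate neighbours, with no gene between them. KRT7 is on the same chromosome with 32 protein-coding genes between it and KRT8, and KRT19 is on another chromosome. The deposited counts were made on UMD3.1, another assembly, so no coordinates are given.

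The other keratins were scarce in the counts. Of the 44 other keratin entries in the table, 5 had no count in any embryo, 36 had between 1 and 99 counts in their highest embryo, and 3 reached 100 or more, namely KRT5, KRT80 and KRT1. Only KRT5, a type II keratin of stratified epithelia, could be tested in the comparisons of all embryos. In the comparisons by sex 1 to 5 of the 44 could be tested, and none was called by edgeR. Its mean was 166 ± 56.8 CPM in vivo, 166 ± 88.7 CPM in serum-free medium and 202 ± 93.8 CPM in serum (SD, n = 8). The KRT5 log2 fold change, in vivo over serum, was -0.28 (adjusted p = 0.640), the opposite sign to KRT8, KRT18, KRT19 and KRT7. In B2 KRT5 was at 5.35 CPM, against at least 165 CPM in each of the other serum embryos.

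Genes whose level was most like that of the 4 keratins were sought among 6873 genes with a mean of at least 10 CPM, by Pearson correlation over the 24 embryos with the mean of the standardized keratins. The 10 nearest were CRIP1 (r = 0.98), ENSBTAG00000047000 (0.97), DSTN (0.96), PLLP (0.96), CAPG (0.96), SFN (0.96), CYB5R3 (0.96), TMEM86A (0.95), MYOF (0.95) and TAGLN2 (0.95), against a median of 0.02 over all genes. DSTN and CAPG regulate actin filaments, and SFN is the 14-3-3 protein of epithelial cells, which binds phosphorylated keratin. CRIP1 had 219 ± 85.9 CPM in vivo, 193 ± 232 CPM in serum-free medium and 13.9 ± 11.9 CPM in serum, and DSTN had 690 ± 99.1, 721 ± 236 and 172 ± 95.4 CPM (SD, n = 8). In all 10 genes C7 was the highest serum-free embryo and B2 the lowest serum embryo. A choice by correlation with the keratins favours this, since C7 and B2 were also extremes of most keratin levels. The points of these correlations share the libraries and conditions of the keratins, so no p-value is given. With the mean of each condition subtracted, the nearest 5 were CRIP1 (0.91), ENSBTAG00000047000 (0.90), DSP (0.89), SFN (0.89) and PLLP (0.89). DSP, which was not among the 10, also had C7 highest in serum-free medium and B2 lowest in serum. Neither ranking was repeated without C7 and B2, so how far the r values rest on them was not tested. Of the 4 keratins, KRT8 and KRT18 followed the mean of the other 3 more closely, at 0.93 and 0.91, than KRT19 and KRT7, at 0.76 and 0.73.

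Keratin filaments are anchored by desmosomal proteins and plakins, and 4 of these genes were called, all lower in serum than in vivo. Of 22 genes on that list 21 were in the table and 10 could be tested in vivo against serum, and their median log2 fold change was 1.06, against -0.01 for all genes tested. Of all 7339 genes tested there, 13.8% were called and 7.34% were called higher in vivo. The desmoplakin gene DSP, which links desmosomes to keratins, had 59.3 ± 28.2 CPM in vivo, 56.2 ± 38.3 CPM in serum-free medium and 17.9 ± 11.3 CPM in serum (log2 fold change 1.74, adjusted p = 0.00685). PERP, a desmosomal membrane protein, was higher in vivo by 1.51 (adjusted p = 6.67e-05), the armadillo protein JUP by 1.38 (0.00248) and the plakin PLEC by 1.13 (0.0379). Without B2 PLEC was not called, at 1.02 (edgeR quasi-likelihood, adjusted p = 0.0621), and the desmosomal cadherin DSC2 was called, at 4.15 in place of 1.84. DSG2, another desmosomal cadherin, was not called at 0.98 (adjusted p = 0.133), nor was PKP2 at 0.38 (0.345). Between serum-free and serum embryos 3 of 9 tested were called, DSP, JUP and PERP, all higher in serum-free medium, and DSP was not called without C7 (1.29, edgeR quasi-likelihood, adjusted p = 0.0751). Of all 7181 genes tested there, 5.36% were called higher in serum-free medium.

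Among genes of epithelial adhesion and polarity 4 were called too, again all higher in vivo. Of 18 listed, 15 were in the table and 14 were tested in vivo against serum, with a median log2 fold change of 0.80. Of all 7339 genes tested there, 7.34% were called higher in vivo. The called genes were the tight junction genes CLDN7 (2.34, adjusted p = 0.00656), CLDN4 (2.06, 0.0115) and OCLN (1.39) and the adhesion molecule EPCAM (2.04). In serum-free embryos 3 of 14 were called higher than in serum, as were 5.36% of all 7181 genes tested. Of the binding partners and regulators of keratins, 11 of 15 were tested and SFN alone was called, higher in vivo by 3.35 (adjusted p = 0.000589), while the median of the group was -0.16. SFN was also higher in serum-free than in serum embryos, by 3.67.

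Other intermediate filaments gave no call in the direction of the keratins. Of 15 listed, 5 were tested, and only NEFL, a neurofilament subunit, was called, lower in vivo (log2 fold change -1.04, adjusted p = 0.0285), with 43.4 ± 23.6 CPM in vivo and 89.5 ± 40.9 CPM in serum. The mesenchymal filament VIM was near 0, with means of 0.14 CPM in vivo, 2.19 CPM in serum-free medium and 2.30 CPM in serum. Of the transcription factors known in trophectoderm, 12 of 25 were tested and 4 were called higher in vivo, GATA2 (1.98), GATA3 (1.88), OVOL1 (1.69) and GRHL1 (1.66). Of all 7339 genes tested, 13.8% were called and 7.34% were called higher in vivo. ID2 was called lower in vivo, at -3.07, a value that rested on B2, which had 3339 ID2 counts against 37 to 481 in the other serum embryos. Without B2 it was -1.16 and not called (edgeR quasi-likelihood, adjusted p = 0.0613). TFAP2C, TEAD4 and KLF4, at -0.32, -0.71 and -0.60, were not called.

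Between embryos derived in vivo and serum-free embryos the lists of keratin biology and trophectoderm factors held 2 calls, both among the binding partners and regulators of keratins. Of these partners 11 were tested, and 2.2% of all 7314 genes tested were called. No call fell among 11 tested genes of desmosomes and plakins, 14 of adhesion and polarity, 5 other intermediate filaments and 12 trophectoderm factors. HSPB1, a small heat shock protein that associates with intermediate filaments, had 375 ± 107 CPM in vivo and 827 ± 306 CPM in serum-free medium (log2 fold change -1.14, adjusted p = 0.00204). Its groups did not overlap, but the share of all genes without overlap was not counted for this comparison. Without C7 it was -0.96, less than 2-fold, with an adjusted p of 0.00114 by edgeR, and DSC2 was called, higher in vivo by 1.42. KLHL24, an adaptor that directs keratin turnover in skin, was higher in vivo by 1.06 (0.0169).

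**Figure D4:**
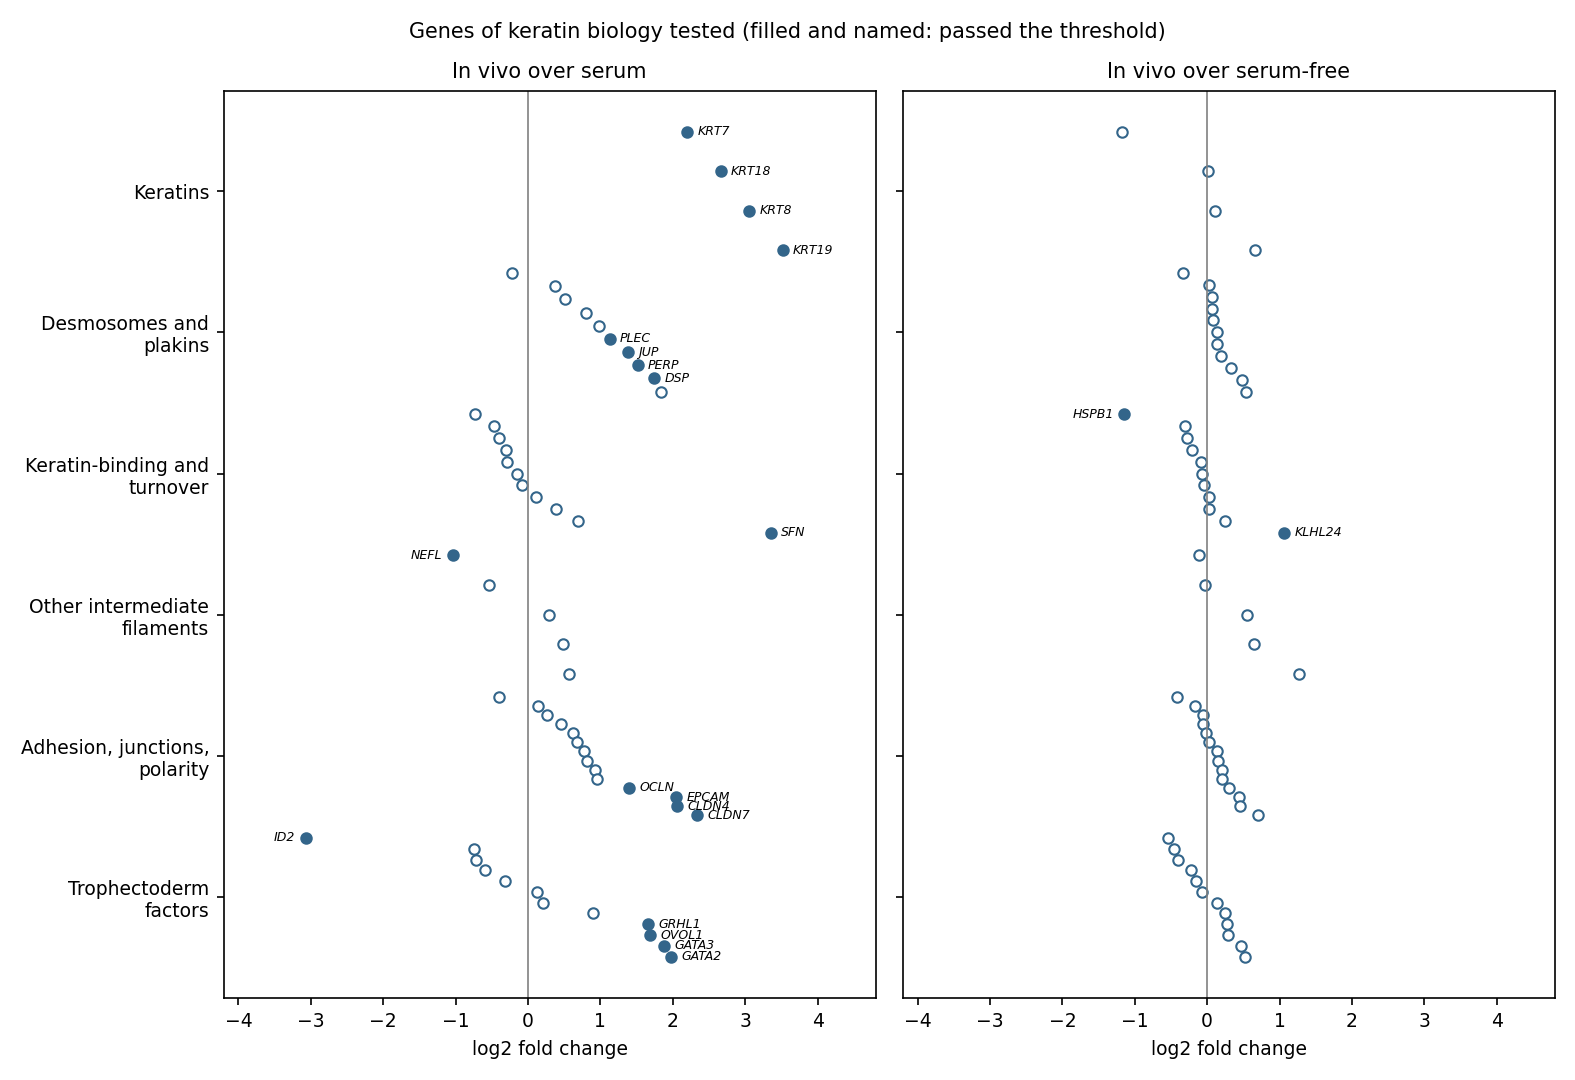
Log2 fold changes of the tested genes of 6 lists, in vivo over serum (left) and in vivo over serum-free (right), with called genes filled and named. The 4 keratins lie between 2.20 and 3.52 on the left and between -1.18 and 0.66 on the right, and HSPB1 and KLHL24 are the only named points on the right.

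The markers of other cells moved with the keratins in several ways, and their part in the keratin differences was not tested. Of the trophectoderm markers tested, 3 of 4 were called higher in vivo than in serum, namely DAB2, an endocytic adaptor (1.12, and 0.92 without B2, less than 2-fold), and GATA2 and GATA3, which are also among the trophectoderm factors above. The other one tested, TEAD4, was not called and went the other way, with means of 32.8 CPM in vivo and 54.2 CPM in serum. In males 2 of 4 were called higher and 1 lower in vivo. With all embryos 13.8% of all 7339 genes tested were called, and 7.34% were called higher in vivo. In males 13.3% of 7762 were called, and 8.03% were called higher in vivo. The inner cell mass markers summed to 236 to 308 CPM in vivo, 139 to 423 CPM in serum-free medium and 202 to 368 CPM in serum, and of the 3 tested in vivo against serum SOX2, a pluripotency factor, was called, lower in vivo (-1.25, adjusted p = 0.0271). The other 2 were POU5F1 at 0.55 and SALL4 at -0.67. POU5F1 was the largest part of the sum, with mean levels of 215 CPM in vivo, 171 CPM in serum-free medium and 147 CPM in serum. NANOG, which was not tested there, went the other way and varied widely, with 12.4 ± 8.5, 46.1 ± 71.9 and 63.6 ± 77.7 CPM (SD). The primitive endoderm markers summed to 369 to 629 CPM in vivo, 168 to 480 CPM in serum-free medium and 26.7 to 269 CPM in serum. PDGFRA was the largest part of this sum, with mean levels of 436, 216 and 107 CPM. Of the 3 tested in vivo against serum only PDGFRA, a growth factor receptor, was called, higher in vivo by 2.04, while COL4A1 was at 1.16 and GATA6 at -0.16. Of the 4 tested in vivo against serum-free, PDGFRA was called higher in vivo at 1.01 (0.95 without C7, less than 2-fold) and LAMA1, a laminin chain, lower at -3.46. Of all 7314 genes tested there, 2.2% were called. Markers of the cumulus and granulosa cells that surround an oocyte were at most 38.8 CPM in sum, and those of genital tract epithelium at most 18.4 CPM. PTX3 and FOXJ1 on these lists had 0 counts in all embryos, but other members had counts. In vivo, in serum-free medium and in serum, CYP19A1 had means of 14.5, 7.46 and 8.97 CPM, HAS2 1.95, 5.63 and 4.70, and OVGP1 1.25, 1.94 and 7.81. The single cumulus marker tested was called higher in vivo than in serum in males (2.68), but not with all embryos (0.70). Leukocyte markers summed to 11.7 to 41.9 CPM in vivo, 3.30 to 43.0 CPM in serum-free medium and 27.6 to 113 CPM in serum, with CSF1R, a receptor also known from trophoblast, called lower in vivo (-2.08, adjusted p = 0.0035). Stromal markers summed to 20.3 to 41.4, 19.4 to 110 and 8.04 to 122 CPM. Among the serum embryos B2 was highest for the cumulus, genital tract and leukocyte sums and lowest for the trophectoderm and primitive endoderm sums.

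The number of genes detected had its widest range in serum. It was 13136 to 14381 in vivo, 12943 to 14379 in serum-free medium and 11735 to 14732 in serum. Without the 4 serum embryos with the fewest genes, B1, B2, B5 and B7, all 4 keratins were called higher in vivo than in serum, with KRT8 at 2.25 and KRT18 at 1.91, where 10.1% of all 8033 genes tested were called. Between serum-free embryos and the 4 other serum embryos 2 keratins were called, with KRT8 at 2.25 and KRT18, not called, at 1.81 (adjusted p = 0.0691), where 2% of 7953 genes were called. Of the tested genes of desmosomes and plakins, 3 of 12 were then called higher in vivo than in serum, of those of adhesion and polarity 4 of 14, and of the trophectoderm factors 2 of 12 with no lower call. This choice of embryos, and that of the lists without B2 or C7, was made after the data had been seen.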

How the data were processed

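Libraries of single bovine blastocysts were made with SMARTer amplification, which keeps no strand, so antisense reads are not told apart. The authors trimmed the paired reads, mapped them to UMD 3.1 in CLC Genomics Workbench and deposited, as raw counts, the fragments with a unique position in exons. Reads shared with near-identical copies or keratin pseudogenes may therefore be missing. Condition and sex were taken from the labels, and all 24 columns were matched by name. The members and gene lists were chosen with earlier results of these data known.

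The edgeR 4.0.16 quasi-likelihood test was run in R 4.3.3, with TMM normalization and only the compared groups in a fit. Genes entered a test if at least 15 counts were present in all embryos of 1 group or more. Genes named are the 4 keratins, in each list up to 5 called genes with the largest change in vivo against serum and up to 3 against serum-free, list genes that were not called, and the 10 and 5 genes nearest in level. Correlations used exact permutation (SciPy 1.17.1) on log2(CPM + 1). Each embryo was a replicate, although embryos shared cows or experiments that the labels do not tie to them, so p-values measure only the spread between these embryos. No pair of embryos agreed within sampling noise by a chi-square comparison of counts. The fragments carry no molecular identifiers. The scripts were tested on simulated counts. Alternatives were DESeq2 1.42.0, edgeR's exact test, DESeq2's size factors, library totals, count limits, pseudocounts of 1 and 0.1, thinned counts, a fit over all embryos, sex as a covariate, a replicate block and leaving out each embryo.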

Additional observations from a re-analysis of the deposited data

Results flagged for a closer look

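The serum-free male embryo C7 lay far above the other serum-free embryos, at 22758 CPM for KRT8, 4838 CPM for KRT18 and 526 CPM for KRT19. The gap to the nearest embryo passed Dixon's limit for each gene both among the 8 serum-free embryos and among the 5 males. CPM was tested without the log, where high values stand out more, and ratios were tested on the log2 scale. CPM on the log2 scale was not tested, so these flags hold for the CPM scale only. KRT7, at 57.1 CPM in C7, did not pass it. In serum, the log2 ratio of KRT19 to KRT7 counts was 3.81 in B2, a value that rests on 1 KRT7 count. Of 42 groups of values tested, 24 of CPM and 18 of ratios, 7 passed the limit. Chance passes about 1 in 20 if values are normally distributed, which CPM without the log need not be. The values of C7 in 3 genes and 2 groupings are not independent.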

How the results depend on the processing

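Of 1326 values of 161 results under the alternatives, 1144 were counted as unchanged. Fold changes and correlations were so counted if they kept their direction and side of the threshold, and mean ratios if they moved by less than the replicate spread. Counts of calls were so counted if they stayed within a fixed factor, under 2-fold, of the main count, so they may have changed. The 4 calls of in vivo against serum held under all alternatives in which the keratins could be tested, and when both groups had to reach 15 counts throughout, only 2 could be tested, and both were called. For serum-free against serum, KRT7 was called in the exact test (1.53), in DESeq2 (1.53) and in the fit over all embryos (1.49), and between 1.33 and 1.77 as embryos were left out. Without the 4 serum embryos with the fewest genes, chosen after seeing the data, KRT18 was 1.81 and not called. A replicate block left 1 call there (KRT8 3.58, adjusted p = 0.0656; KRT18 2.68, 0.0575) and changed no other keratin call. The numbers do not pair the embryos, with correlations of same-numbered deviations of at most 0.079 over 7 pairs. In females, in vivo against serum gave 2 calls in DESeq2, 0 with at least 15 counts in every embryo (the filter tests fewer genes), 2 without the 4 embryos and 0 to 2 as embryos were left out. The male KRT7 call was lost in the fit over all embryos (2.15).

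The following values changed sign. For in vivo over serum-free, KRT19 was 0.30 in DESeq2, and leaving out embryos gave -0.11 to 0.37 for KRT8, -0.0017 to 0.55 for KRT18 and -1.37 to 0.34 for KRT19. In males KRT8 was 0.075 with library totals, 0.049 with at least 1 count and 0.0068 in the fit over all embryos, with -0.20 to 0.67 for KRT8 and -1.88 to 0.29 for KRT19 as embryos were left out. In females KRT8 was -0.011 with library totals, with -0.19 to 0.33 for KRT8 and -0.30 to 0.55 for KRT18. For males over females, the ranges in vivo were -0.011 to 0.33 for KRT8, -0.13 to 0.62 for KRT19 and -0.15 to 0.55 for KRT7. In serum they were -0.036 to 0.78 for KRT19 and -0.88 to 0.61 for KRT7. In serum-free medium they were -0.53 to 0.44 for KRT8, -0.52 to 0.89 for KRT18 and -0.36 to 0.44 for KRT7, with KRT7 at -0.00093 under library totals, and KRT19 ran from 0.36 to 2.84 with no change of sign. The interaction of KRT8 for in vivo and serum-free was 0.64 without C7. The cause was not tested.

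On CPM without the log, 3 correlations between keratins passed instead of 5, and r was 0.020 for KRT19 with KRT7 in serum-free and -0.015 for KRT18 with KRT7 in serum embryos. By Spearman's rho, 3 of the 10 and 2 of the 5 nearest genes were shared. Counts of genes called moved with the test, the embryos and the block. In females in vivo against serum they were 34 by the quasi-likelihood test, 467 by the exact test, 585 by DESeq2, 461 in the fit over all embryos and 2 to 446 as embryos were left out, with 446 without B2. In males in vivo against serum they were 1035, and 658 without B7 to 1755 without B1. With at least 15 counts in every embryo they fell from 1011 to 544 for in vivo against serum and from 640 to 366 for serum-free against serum. For the latter they were 29 with the replicate block, 987 in the fit over all embryos, 159 without the 4 serum embryos and 393 without C7.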

Other observations

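Besides KRT5, the keratins KRT80 and KRT1 reached 100 counts in some embryo. KRT80, which is next to KRT7 in the annotation, had mean levels of 3.58 CPM in vivo, 9.84 CPM in serum-free medium and 13.9 CPM in serum, in the opposite order to KRT7. KRT1, a keratin of the upper epidermis, had means of 12.9, 5.28 and 4.48 CPM. Neither had enough counts for a test between culture conditions with all embryos. In females, where both could be tested, neither was called by edgeR in vivo against serum (KRT80 -2.19, adjusted p = 0.229; KRT1 2.25, 0.261) or against serum-free (KRT80 -2.27, 0.284; KRT1 3.18, 0.213).

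Among the listed genes called between serum-free and serum embryos, 4 are named here after their values were seen. ESRP2, an epithelial splicing factor, and TEAD3, a partner of the YAP coactivator, were higher in serum-free embryos by 1.23 (edgeR quasi-likelihood, adjusted p = 0.00452) and 1.06 (0.0360) on the log2 scale, and TEAD3 was under 2-fold without B2 (0.88) or C7 (0.90). LAMA1, a basement membrane laminin on the primitive endoderm list, was higher by 3.04 (0.0136). KLF4, a transcription factor of epithelia and pluripotent cells, was lower in serum-free embryos (-1.12, adjusted p = 0.0170).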
